A study of Mus musculus with 12 samples.

Results

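In this series 4 of 12 libraries follow the passage of Chd8 HET cells from the pluripotent to the neural state: 2 of HET mouse embryonic stem cells (ESC), grown in 2i, and 2 of differentiated neural progenitor cells (NPC). HET stands for CHD8+/-, that is 1 altered copy of Chd8, which the 4 libraries share, and no other allele or agent is given for them. They were chosen by genotype and cell type as labelled, not by any measured value. The other 8 libraries are WT and KO (CHD8-/-) cells in the same 2 states, 2 libraries a group, and serve here as comparison. The labels give neither the number of lines or clones behind the HET genotype, nor whether libraries of a group are separate cultures, nor the differentiation protocol and its duration, so the error behind each p-value is that among libraries and may be of technical origin only.

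Medium with 2i holds inhibitors of MEK and GSK3, which keep ESC in a naive state in which they renew themselves and can form any lineage of the embryo. On neural differentiation such cells lose the naive transcription factors and take up a programme of dividing neural precursors, which can form neurons and glia. CHD8 is an ATP-dependent chromatin remodeller of the CHD family, and loss of 1 copy of the human gene is a known cause of autism spectrum disorder with large head size, which is why the heterozygous state is studied. The question put to these libraries was how transcript levels change from ESC to NPC when 1 copy is altered, and whether that change differs from the one in WT or KO cells.

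The values are kallisto estimated counts per transcript. The transcripts carry UCSC-style identifiers that the files do not pair with gene names, and 0 of 55419 were found in the 6 reference tables searched. Neither Chd8 itself nor markers of pluripotent, neural or other cells could therefore be read, so genotype and cell type stand as labelled, and transcripts are described by length, abundance and behaviour instead of by function. HET ESC libraries held 12884157 and 13432274 estimated counts and HET NPC libraries 9945753 and 9731881, so the NPC libraries were the shallower pair. Over all 12 libraries the totals ran from 9062447 to 14766212.

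Differentiation of HET cells raised 1892 transcripts and lowered 1550 among the 30021 tested (edgeR quasi-likelihood test, Benjamini-Hochberg adjusted p under 0.05), which is 11.5% of all tested, 6.3% higher and 5.16% lower. On the TMM scale the median log2 fold change of the rises was 1.98, with quartiles of 1.15 and 3.35, and that of the falls -1.28, with quartiles of -0.86 and -2.36. Which direction held the larger changes turned with the scaling, since the medians were 1.76 and -1.80 with library totals, 1.84 and -2.33 with limma on log2(TPM + 0.1) and 1.30 and -1.46 with limma on log2(TPM + 1). Of the transcripts that rose, 933 did so by at least 4-fold and 552 by at least 8-fold. Of those that fell, 464 and 256 passed the same sizes, with transcripts at 0 counts in a state set at the bound that 3 counts over the group allow. In bulk RNA, fewer cells that make a transcript and less of it per cell cannot be told apart.

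On the TMM scale the balance of rises and falls shifted with abundance. The split by abundance was not made with other scalings, which moved the balance over all tested transcripts. Among transcripts with a mean of 1 to 5 CPM (counts scaled to a common library size by TMM) over the 4 HET libraries, 360 were higher and 180 lower. At 5 to 20 CPM the counts were 639 and 400, and at 20 to 100 CPM they were 695 and 674. Among the 1427 transcripts at 100 CPM or more the order turned, with 147 higher (10.3%) and 265 lower (18.6%). The share called at all went from 1.37% under 1 CPM to 28.9% at 100 CPM or more. The median standard error of the log2 fold change, worked back from the F statistic of the test, was also wider for scarce transcripts. It was 1.24 under a mean of 5 CPM over all libraries and 0.17 at 100 CPM or more.

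**Figure D1:**
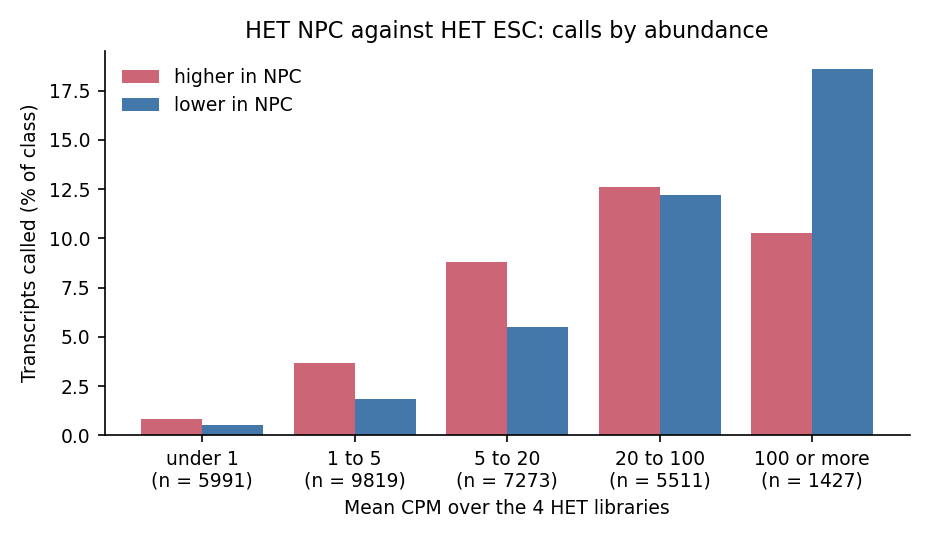
Percentage of tested transcripts called higher (red) or lower (blue) in HET NPC than in HET ESC (edgeR, adjusted p under 0.05) in classes of mean CPM over the 4 HET libraries, with the number tested under each class. On the TMM scale, the only one used here, calls lean to higher in classes from 1 to 20 CPM, are about even at 20 to 100 CPM and lean to lower at 100 CPM or more.

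The number of calls depended on the libraries in the fit, and their balance on the scaling. Without HET ESC replicate 1 or 2 edgeR called 1759 and 2023 transcripts, and without HET NPC replicate 1 or 2 it called 2030 and 1554, where the lone library left in a group was taken to vary like the others. With library totals in place of TMM the median of all tested transcripts stood at 0.30 instead of 0.00, and the split became 2765 higher and 774 lower, that is 78.1% higher against 55%. Directions are thus relative to the median tested transcript.

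The 4 transcripts that follow stand at the ends of the range, as the 2 largest rises and 2 largest falls among calls with a mean of at least 5 CPM and at least 1 count in the lower state, with no overlap between the states, which 55.5% of all tested transcripts share. All 4 came down to 1 count over both libraries of the lower state, so their fold rests on that count.

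The transcript uc009bdo.2, of 9067 bases, stood at 0 and 0.0838 CPM in HET ESC and at 52.3 and 21.1 CPM in HET NPC. That is 1 count against 788, a ratio of 857 with a 95% counting interval of 153 to 33900 (log2 fold change 9.43, SE 1.99, edgeR adjusted p = 0.0204). Both NPC libraries were high, though apart from each other, and both ESC libraries were near 0. In WT it went from 0.119 and 0.517 to 64.7 and 80.1 CPM, and in KO from 0 and 6.52 to 30 and 53.2 CPM. The rise was called in WT (edgeR adjusted p = 0.0208) but not in KO (log2 fold change 3.69, edgeR adjusted p = 0.0969). The difference of HET from KO was not called (interaction log2 5.74, edgeR adjusted p = 0.905), nor was that from WT (1.69).

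The transcript uc009jzr.1, of 4180 bases, stood at 0 and 0.0838 CPM in HET ESC and at 22.9 and 22.1 CPM in HET NPC (1 against 487 counts, ratio 530, 95% counting interval 94.6 to 21000, log2 fold change 8.72, SE 0.69, edgeR adjusted p = 0.000418). Its NPC libraries lay close together and far above ESC. WT ESC had 2.02 and 2.07 CPM and KO ESC 1.23 and 1.91 CPM, all above HET ESC, while WT NPC (15.2 and 25.8 CPM) and KO NPC (22.5 and 37.1 CPM) together spanned the HET NPC values. The larger HET fold against WT was not called (interaction log2 5.4, SE 0.85, edgeR adjusted p = 0.283).

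The transcript uc007ibe.2, of 5543 bases, fell from 59.9 and 57.7 CPM in HET ESC to 0 and 0.0905 CPM in HET NPC (1386 against 1 count, a ratio of 1270 with a 95% counting interval of 228 to 50400, edgeR adjusted p = 0.0124). The ESC libraries lay close together and the NPC libraries held almost none. In WT it went from 40 and 21.5 to 5.59 and 6.54 CPM, and in KO from 64.2 and 13 to 0 and 3.65 CPM. Its choice for a large fall in HET favours a larger fold there. The difference was not called against WT (interaction log2 -7.68, SE 2.26, edgeR adjusted p = 0.78) or KO (-5.65, edgeR adjusted p = 0.897).

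The transcript uc012hpq.1, of 2463 bases, fell from 28 and 61.8 CPM to 0.0942 and 0 CPM (1064 against 1 count, a ratio of 978 with a 95% counting interval of 175 to 38700, edgeR adjusted p = 0.0274). Its ESC libraries were wide apart but did not overlap the NPC libraries. In WT it went from 51.7 and 32.8 CPM to 0 and 5.07 CPM, and in KO from 31.5 and 59.7 CPM to 0 in both NPC libraries. The fall was called in KO (edgeR adjusted p = 0.0229) but not in WT (edgeR adjusted p = 0.103). The difference of HET from WT was not called (interaction log2 -5.58, SE 2.66, edgeR adjusted p = 0.954), nor was that from KO (2.42).

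Of these 4, only uc009jzr.1 kept its call without each HET library in turn (edgeR adjusted p = 0.00246 to 0.00468). The call of uc009bdo.2 ended without HET ESC replicate 1 or 2 or HET NPC replicate 1 (adjusted p = 0.126, 0.107 and 0.0658 by edgeR), that of uc007ibe.2 without HET NPC replicate 1 or 2 (0.0854 and 0.0868), and that of uc012hpq.1 without any one of the 4 (0.0607 to 0.165). Kallisto shares reads among isoforms, so a single transcript can move where its gene as a whole does not.

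**Figure D2:**
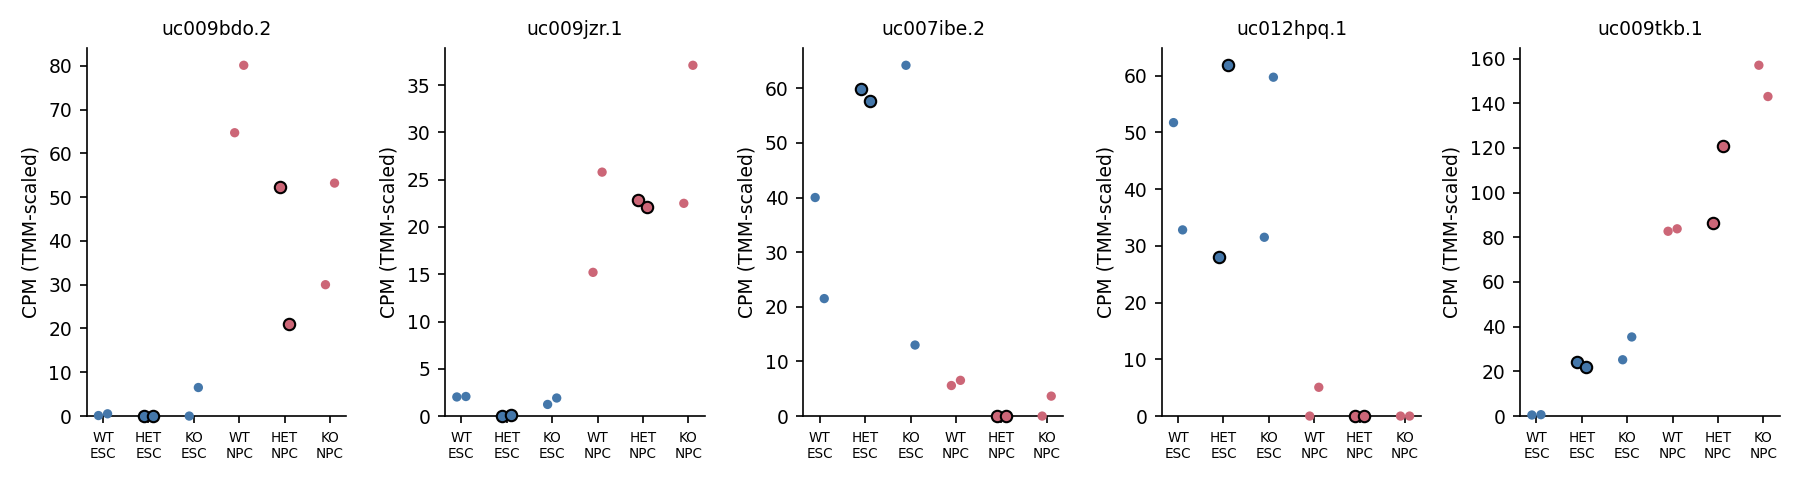
TMM-scaled CPM of 5 named transcripts in all 12 libraries, 1 point a library, ESC in blue, NPC in red and HET libraries outlined. In HET the first pair rises from near 0, the next pair falls to near 0, and uc009tkb.1 starts at about the KO level in ESC, where both WT libraries are near 0.

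A set of 143 transcripts had 0 counts (rounded) in both HET ESC libraries and were called higher in HET NPC, where their median was 3.42 CPM and their range 0.835 to 47.3 CPM. The bounds on their rise ran from at least 6.53-fold to at least 374-fold higher. In the other direction 76 transcripts called lower had 0 counts in both HET NPC libraries, with a median of 2.64 CPM and a range of 0.423 to 21.9 CPM in HET ESC. They were at least 3.06-fold to at least 158-fold lower. Over all tested, called or not, 1755 transcripts had 0 counts in both HET ESC libraries and 1355 in both HET NPC libraries. Most of these on-and-off transcripts were not silent in the matching state of the other genotypes, which a choice on 0 counts in HET favours. How many of the 1755 and 1355 were also at 0 in WT or KO was not counted. Of the 143, 63 also had 0 counts in WT ESC, 44 in KO ESC and 30 in all 6 ESC libraries. Of the 76, 20 had 0 counts in WT NPC, 22 in KO NPC and 12 in all 6 NPC libraries. In WT 66 of the 143 were called higher and 20 of the 76 lower, and in KO 67 and 26. Over all tested, 6.83% were called higher and 5.33% lower in WT, and 6.59% and 6.42% in KO. Since 0 counts in HET chose these lists, the counts in the other genotypes are a description, with no test.

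Calls among long transcripts were mostly rises and those among short ones mostly falls, on the TMM scale; in TPM the median of the shortest class was above 0 (0.09). Transcripts that were higher in HET NPC had a median length of 3770.5 bases, those lower 2445.5 bases, and all tested ones 2792 bases. Of the 361 tested transcripts of 10 kb or more, 98 (27.1%) were called higher and 13 (3.6%) lower, against 6.3% and 5.16% over all tested. Among the 2237 under 1 kb the order was reversed, with 50 (2.24%) higher and 184 (8.23%) lower. The median log2 fold change climbed through every length class, from -0.32 under 1 kb to -0.14 at 1 to 2 kb, 0.00 at 2 to 4 kb, 0.24 at 4 to 10 kb and 0.60 at 10 kb or more.

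The gradient appeared in each pair of libraries and not between replicates. In the 4 pairings of a HET NPC with a HET ESC library, the median log2 CPM difference of transcripts of 10 kb or more was 0.43 to 0.55 and that of transcripts under 1 kb was -0.36 to -0.24. Between the HET ESC replicates the same medians were 0.07 and -0.02, and between the HET NPC replicates 0.01 and -0.05. The longest class also lay above the shortest within each abundance class. At 20 to 100 CPM the median log2 fold change went from -0.47 under 1 kb (308 transcripts) to 0.60 at 10 kb or more (120), and at 100 CPM or more from -0.52 (135) to 0.32 (74). Under 1 CPM it was 0.11 in the shortest class and 1.11 in the 36 longest.

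With library totals in place of TMM every class moved up, to -0.03 under 1 kb and 0.90 at 10 kb or more, so the level of a class depends on the scaling. The median difference of transcripts of 4 kb or more from those under 1 kb was 0.58 with TMM and 0.583 with library totals. It was 0.295 with limma on log2(TPM + 1). With deposited TPM values and a pseudocount of 0.1 the medians were 0.09 and 0.91, and with a pseudocount of 1 they were 0.09 and 0.58. Without a filter on low counts the medians of the 3 classes below 4 kb were all 0.00. WT cells showed the same order of classes, from -0.34 to 0.48, and KO cells from -0.28 to 0.33. A difference in gradient between genotypes was not tested.

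Mean fragment length, as the deposited effective lengths imply it, was 183 and 173 bases in HET ESC and 167 and 170 bases in HET NPC, so it moved with cell state in HET. In WT it was 180 and 175 bases in ESC and 174 and 176 bases in NPC, which overlap, and in KO 176 and 175 bases in ESC and 182 and 181 bases in NPC. The part of fragment length in the gradient was not tested.

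**Figure D3:**
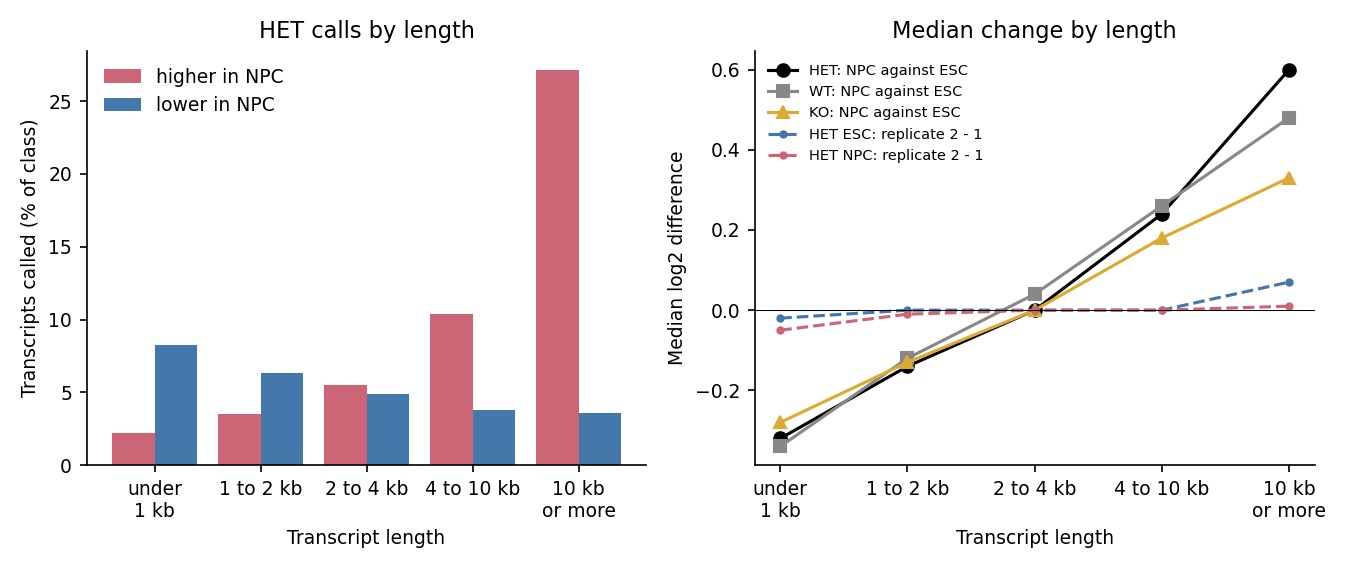
Left, percentage of tested transcripts called higher (red) or lower (blue) in HET NPC by length class. Right, median log2 fold change of NPC against ESC by length class in HET, WT and KO (solid lines) and median log2 CPM difference between replicates of HET ESC and of HET NPC (dashed lines); on the TMM scale the solid lines climb from about -0.3 (above 0 in TPM, at 0.09 in HET) to between 0.33 and 0.60, the dashed ones stay within -0.05 to 0.07.

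The make-up of whole libraries moved in the same way. Transcripts of 4 kb or more held 22.4% and 21.1% of the counts in HET ESC and 28.5% and 31.2% in HET NPC, with no overlap. In the other genotypes the ESC libraries stood at 19.1% to 24.2% and the NPC libraries at 29.1% to 32.8%. Counts were spread over more transcripts in NPC. In HET ESC 303 and 182 transcripts held 50% of the counts, and in HET NPC 507 and 717 did.

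A single transcript, uc009vew.1 of 2555 bases, weighed on these shares. It was picked here as the most abundant of the series, after its values had been seen. It held 20.3% and 25.8% of the counts in HET ESC and 16.6% and 12.6% in HET NPC. The drop was not called in HET (log2 fold change -0.95, SE 0.28, edgeR adjusted p = 0.066), though it was in WT (-1.12, adjusted p = 0.0366) and KO (-1.36, adjusted p = 0.0168), and the difference of HET from WT was 0.17 (SE 0.39, edgeR adjusted p = 1). With it left out, transcripts of 4 kb or more held 28.1% and 28.4% in HET ESC and 34.2% and 35.7% in HET NPC, still without overlap.

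The number of transcripts detected depended on how depth was matched. As deposited, 23193 and 24070 transcripts had at least 10 counts in HET ESC and 24205 and 23895 in HET NPC, which overlap. After all libraries were thinned at random to the smallest total, the numbers were 21446 and 22008 in HET ESC and 23715 and 23545 in HET NPC, and did not overlap. The most abundant transcripts still took a larger share of these counts in ESC. With uc009vew.1 left out before thinning the numbers were 21582 and 22470 in HET ESC and 23591 and 23172 in HET NPC. With the 100 most abundant transcripts of the series left out they were 21345 and 22435 in HET ESC and 23173 and 22570 in HET NPC, closer but still apart. At a limit of 1 count the last setting gave 31147 and 31870 in HET ESC and 32313 and 31814 in HET NPC, which overlap. With 2 libraries against 2, an exact two-sided permutation test cannot go below p = 0.333, so none is given for values per library.

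To read the HET change on lists that no HET library had a part in, the 8 WT and KO libraries were fitted by themselves and the 4 HET libraries by themselves, a choice made after seeing the data. Of 1042 transcripts called higher in NPC in both WT and KO and tested in HET, 1041 had a positive fold change in HET, against 49.8% of all tested there, and 523 (50.2%) were called higher, against 2.99% of all tested. Of 728 called lower in both, 726 were negative in HET, against 50.2% of all tested, and 268 (36.8%) were called lower, against 1.76%. None of either list was called in the opposite direction in HET by edgeR. The median log2 fold change of the first list was 2.20 in HET, 2.25 in WT and 2.18 in KO, and that of the second -1.48, -1.53 and -1.71.

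In the fit over all 12 libraries, where HET libraries share the filter, scaling and dispersion that set the WT and KO calls, the lists were longer. In WT 6.83% of tested transcripts were called higher and 5.33% lower in NPC, and in KO 6.59% and 6.42%. Of 1235 transcripts called higher in both, 1234 had a positive fold change in HET and 1112 (90%) were called higher there. Over all tested transcripts 49.9% had a positive value in HET. Of 985 called lower in both, 984 had a negative fold change in HET and 826 (83.9%) were called lower, and over all tested 48.7% were negative. No member of either list was called in the opposite direction in HET. The median log2 fold change of the first list was 2.02 in HET, 2.10 in WT and 2.02 in KO, and that of the second -1.26, -1.34 and -1.41. The HET medians depended on the scaling and on how the lists were chosen, at 1.78 and -1.87 with library totals, 1.69 and -2.20 with limma on log2(TPM + 0.1), 1.31 and -1.73 with limma on log2(TPM + 1), and 3.27 and -3.22 for lists tested against a 2-fold change. The WT and KO values chose the lists and are given as a description.

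As a share of each library, with uc009vew.1 left out, the first list held 3.11% and 3.13% of the counts in HET ESC and 9.5% and 10.3% in HET NPC. It held 3.02% to 3.32% in the WT and KO ESC libraries and 10.6% to 11.1% in the WT and KO NPC libraries, where both HET NPC libraries lay below the others. The list was chosen for being high in WT and KO NPC, which favours that order. On the transcripts called higher in HET, as a share of all counts with uc009vew.1 kept in, HET NPC held 10.7% and 12.1%. There WT NPC held 12.3% and 12.8% and KO NPC 12.3% and 11.6%. HET NPC replicate 1 was thus the lowest NPC library, and replicate 2 lay above KO NPC replicate 2 alone. The second list went from 13.2% and 13.5% in HET ESC to 6.9% and 6.62% in HET NPC, while WT and KO NPC libraries ran from 6.06% to 6.63%. On this list HET NPC replicate 1 lay above that range and replicate 2 within it. Whether HET NPC differs from the other NPC libraries in these shares was not tested.

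**Figure D4:**
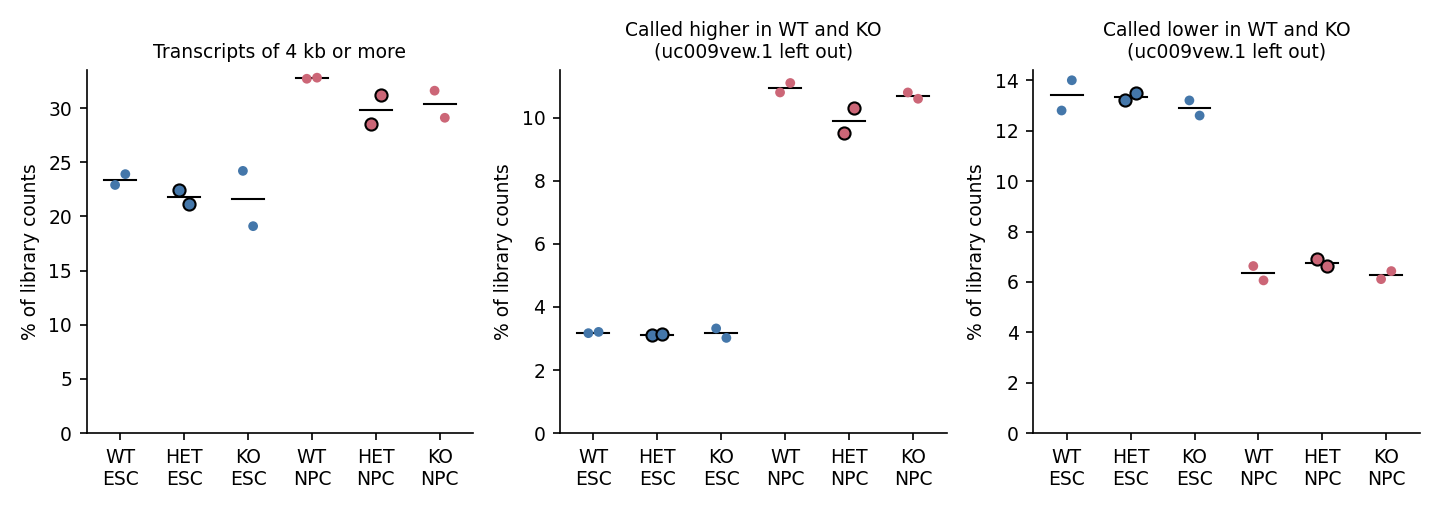
Percentage of library counts held by transcripts of 4 kb or more (left) and, without uc009vew.1, by transcripts called higher (middle) or lower (right) in both WT and KO, 1 point a library, with a line at the mean of 2. In every panel all NPC libraries (red) are apart from all ESC libraries (blue). In the middle and right panels the choice of the lists, from the fit over all 12 libraries, favours this for WT and KO. HET libraries are outlined.

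Read the other way, 71.8% of the 1892 HET rises were called higher in WT and 73.5% in KO, which is 66.3% of the WT and 70.3% of the KO rises. Of the 1550 falls, 65.9% were called lower in WT and 70.7% in KO, that is 63.8% and 56.9% of the falls there. The background is the 6.83% higher and 5.33% lower in WT and the 6.59% and 6.42% in KO, out of 12.2% and 13% called in either direction.

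Calls made in HET alone numbered 254 higher (13.4% of the rises) and 258 lower (16.6% of the falls). They were chosen for passing in HET and failing in WT and KO, which by itself gives HET the larger values, so the following is a description. Of the 254, 226 had a positive fold change in WT and 230 in KO, with medians of 0.77 and 0.75 against 2.04 in HET. Of the 258, 230 were negative in WT and 227 in KO, with medians of -0.54 and -0.55 against -1.39. These transcripts were scarcer than those called in all 3 genotypes, with a median of 7.37 against 21 CPM for the rises and 13.4 against 37.3 CPM for the falls. In all, 8 HET calls met a call in the opposite direction in WT or KO.

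**Figure D5:**
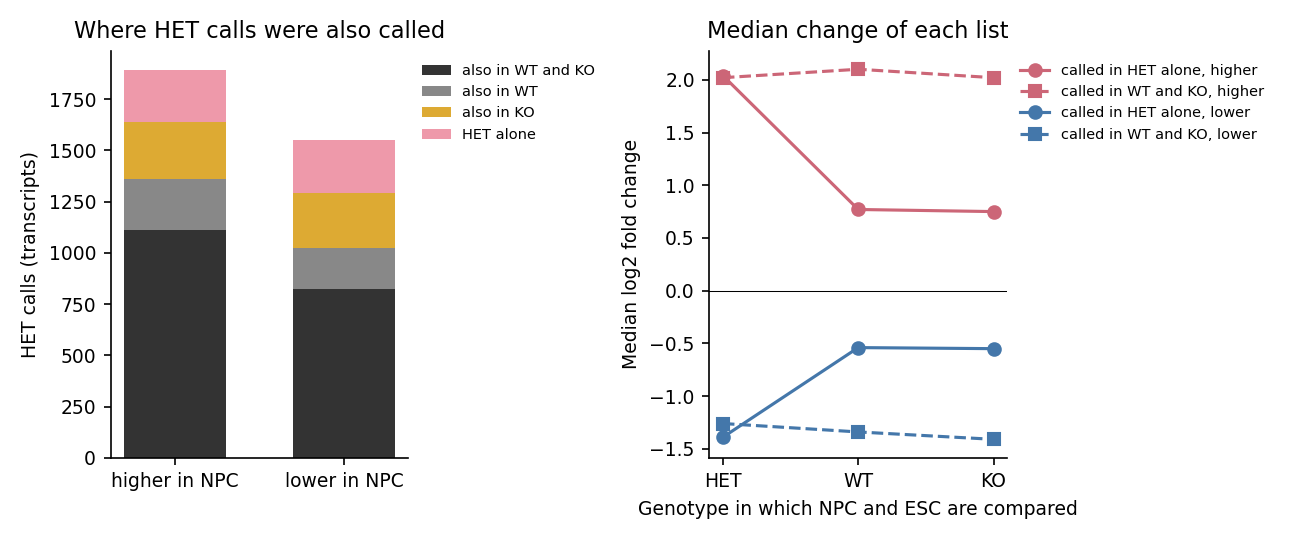
Left, number of HET calls in each direction that were also called in WT and KO, in 1 of them or in neither. Right, median log2 fold change of NPC against ESC in each genotype for transcripts called in HET alone (circles) and for those called in both WT and KO (squares); the first are at 2.04 and -1.39 in HET and between -0.55 and 0.77 elsewhere, an order that their selection favours, and the second lie between 2.02 and 2.10 and between -1.41 and -1.26 on the TMM scale.

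Tested directly, the change in HET differed from that in WT for 1 transcript (0.00333% of tested) and from that in KO for 0 (edgeR interaction test, adjusted p under 0.05). Of the 30021 tested, 1567 and 1659 had an unadjusted p under 0.05 by edgeR, near the share that this limit lets through where nothing differs. DESeq2 called 264 and 328 of the 30021. The small number of calls does not show that the courses are alike. The median standard error of the difference from WT was 0.53 on the log2 scale at 5 to 20 CPM, 0.30 at 20 to 100 CPM and 0.24 at 100 CPM or more.

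The transcript that differed was uc009tkb.1, of 1545 bases. It stood at 24.4 and 22 CPM in HET ESC and at 86.6 and 121 CPM in HET NPC, a rise of 2.16 on the log2 scale (SE 0.21, adjusted p = 0.000872 by edgeR). In WT it went from 0.474 and 0.62 CPM to 82.7 and 83.8 CPM, a log2 fold change of 7.21, so the change in HET was smaller by -5.05 (SE 0.37, edgeR adjusted p = 0.0207). The difference lay in ESC, where HET and WT libraries did not come near each other, while in NPC the lower HET library was close to both WT libraries. KO resembled HET, with 25.2 and 35.4 CPM in ESC and 157 and 143 CPM in NPC (difference of HET from KO -0.14, edgeR adjusted p = 1). The call did not hold without HET ESC replicate 1 (adjusted p = 0.0515) or HET NPC replicate 1 (0.0505), without WT ESC replicate 1 or 2 (0.0702 and 0.056), WT NPC replicate 1 or 2 (0.109 and 0.123) or KO NPC replicate 1 or 2 (0.0875 and 0.0879).

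Neighbours in the deposited row order were often called together. The 1892 rises formed 1636 runs of consecutive tested rows and the 1550 falls 1353 runs. In all, 24.7% of the rises and 22.5% of the falls had a neighbour called the same way, with longest runs of 5 and 9. The row after a rise was also a rise in 13.5% of cases against 6.3% over all tested, and the row after a fall was a fall in 12.7% against 5.16%. Opposite calls stood side by side 108 times. The files do not say whether neighbours are isoforms of 1 gene, so the number of genes behind the calls is not known.

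On a broader scale, 199 blocks of 100 neighbouring transcripts with a mean of at least 2 CPM had median log2 fold changes between -0.53 and 0.39 in HET, with an SD of 0.133. The SD was 0.142 and 0.173 for differentiation in WT and KO. Between HET ESC replicates it was 0.0702 and between HET NPC replicates 0.0522. Those 2 values rest on log2 CPM differences between single libraries, not on fitted fold changes, and are no baseline for row order. With blocks of 50 and of 200 transcripts the HET SD was 0.187 and 0.0936. No comparison with unordered rows was made, so whether neighbours shift together on this scale was not tested. Over all tested transcripts 6.3% were called higher and 5.16% lower in HET. Calls were more common at higher abundance, and their share among transcripts of at least 2 CPM was not counted. The lowest block in HET, block 49, held 23 falls and 6 rises among its 100 transcripts and stood at -0.40 in WT and -0.41 in KO. The highest, block 140, held 17 rises and 9 falls and stood at 0.39 in HET, 0.22 in WT and 0.37 in KO. The extreme blocks of HET were thus shifted the same way in the other genotypes.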

How the data were processed

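Per the labels' protocols, stranded libraries were made with a SMARTer kit from rRNA-depleted total RNA. Per the submitters' processing notes the tools were cutadapt 1.16 and kallisto (version not stated) and the build mm9. Per the file headers, the authors deposited kallisto estimated counts per transcript, not normalized, with length and effective length. Also deposited are TPM values, which the authors' kallisto run scaled per library, per the file headers. Counts equal to 2 decimals in all libraries (total at least 10; 252 transcripts in 99 sets) were summed, and all were rounded. EdgeR 4.0.16 in R 4.3.3 used filterByExpr (minimum count 10), TMM and 1 robust quasi-likelihood fit over 12 libraries with a mean per group (common dispersion 0.35), two-sided. Log2 CPM used a prior count of 2. Printed CPM are TMM-scaled. Each edgeR SE is the absolute log2 fold change over the square root of the F statistic, not a fitted standard error. Alternatives used DESeq2 1.42.0, limma 3.58.1 and other settings; code was tested on simulated data. Named transcripts had an adjusted p under 0.05, a mean of at least 5 CPM, no overlap and at least 1 rounded count in the lower state; the 2 largest changes each way are named, and any interaction call. Planned sums per gene, gene lists and marker checks needed gene names and were not run. Members and lists were chosen with earlier results of these data known. Intervals are exact binomial ones on pooled counts and, like floors of 3 counts, cover counting error only. Same-numbered HET libraries did not deviate together (r = -0.054 over 14258 transcripts).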

Additional observations from a re-analysis of the deposited data

Results flagged for a closer look

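The change of uc009tkb.1 from ESC to NPC differed between HET and WT by -5.05 on the log2 scale in the edgeR interaction test, since HET ESC already held 24.4 and 22 CPM where WT ESC held 0.474 and 0.62 CPM. Groups of 2 libraries are too small to be searched for single libraries far from the rest.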

How the results depend on the processing

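The number of calls was the least stable result. Leaving out 1 library, the HET count ran from 1554 to 3671 (922 to 2065 higher, 632 to 1606 lower), the WT count from 1528 to 3219 and the KO count from 1587 to 4021, and the interactions gave 0 to 6 calls against WT and 0 to 2 against KO. The labels do not tie replicate numbers across cell states, and with the replicate block within genotype the HET count was 1099 (657 higher, 442 lower), the WT count 1178, the KO count 1337 and the interaction with WT 0 calls. A replicate block within cell type, chosen after seeing the data, gave 0 for that interaction too, as did a fit without the KO libraries. The 4 HET libraries alone gave 1210 calls (761 higher, 449 lower), and alone with the replicate block 0 in either direction, with 5192 at an unadjusted p under 0.05 by edgeR and 1 residual degree of freedom. DESeq2 called 6693 in HET (3606 higher, 3087 lower), 6550 in WT, 6941 in KO and 264 and 328 in the interactions. Limma on log2(TPM + 1) called 5253 in HET (4320 higher, 933 lower) and 6288 in WT, and with a pseudocount of 0.1 it called 3996 higher and 861 lower in HET, 5765 in WT and 3 against WT. At adjusted p under 0.01 the counts were 1424 in HET (840 higher, 584 lower), 1429 in WT, 1632 in KO and 0 against WT. Against a null of 2-fold they were 905 (632 higher, 273 lower), 881 and 1084. Library totals gave 774 lower. The median difference between transcripts of 4 kb or more and under 1 kb, 0.58, was 0.475 to 0.587 without 1 library, 0.199 without the low-count filter and 0.295 with limma on log2(TPM + 1). The excess of transcripts with 10 counts in NPC, 418.5, ran from -20 (without HET ESC replicate 1) to 857 and was 1903 after thinning, or 1356 with the most abundant transcript left out first (added after seeing the data); that of transcripts with 1 count, 303, became 911. The share of counts at 4 kb or more rose by 6.75 to 9.45 points without 1 library. The HET medians of the lists called in both WT and KO, 2.02 and -1.26, were also 1.41 and -0.94 among transcripts of at least 10 CPM, and kept their sign in every setting run. The calls of uc009bdo.2, uc007ibe.2, uc012hpq.1 and uc009tkb.1 ended under the replicate block within genotype (edgeR adjusted p = 0.0781, 0.105, 0.156 and 1). The cause of these shifts was not tested.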

Other observations

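Block 46 of the row order, 100 transcripts with a median length of 1411 bases, stood apart between the HET ESC replicates, with a median of -0.52 in replicate 2 against replicate 1, where the SD over blocks was 0.0702. Relative to the mean of all libraries its median was 0.37 and -0.15 in HET ESC, 0.31 and -0.25 in WT ESC and 0.25 and 0.13 in KO ESC for replicates 1 and 2. The HET NPC replicates stood at -0.05 and 0.06, and the differentiation of HET gave -0.15 for this block against -0.44 in WT.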
